A study of Homo sapiens with 6 samples.

Results

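The family of miR-148a, miR-148b and miR-152 holds 3 microRNA hairpins, MIR148A, MIR148B and MIR152, whose 3p products share 1 seed. All 6 mature arms of these hairpins, taken by name, were found among the 2656 miRNAs of the deposited count table, and all 6 passed the filter on low counts that left 768 miRNAs for testing. Counts came from small RNA libraries of K562, a human leukaemia line whose cells the labels call myeloblasts. The resistant form (3 libraries) had been selected by continuous growth in rising azacitidine concentrations, and the sensitive form (3 libraries) is the line it was selected against. Both forms were kept in the same RPMI medium with serum, penicillin and streptomycin, and no other agent or genetic change is named. Whether azacitidine was still present at harvest is not stated, and every library name carries the tag NT, which the labels do not explain. The labels name biological replicates but no separate selections. The p-values therefore measure the spread between these libraries, and the resistant form stands for 1 selection as far as the labels go.

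A miRNA is cut from a hairpin precursor, and 1 arm, the guide, is loaded into an Argonaute protein. Bases 2 to 8 of the guide, the seed, pair with matching sites in messenger RNAs, which lowers their translation and stability. The other arm, the passenger, is mostly degraded. The 3p arms of miR-148a, miR-148b and miR-152 are the guides of this family, and they are known as repressors of DNA methyltransferase transcripts, DNMT1 and DNMT3B among them. DNMT1 copies methylation onto new DNA strands, while DNMT3A and DNMT3B set methylation at new places. Azacitidine acts on the same enzymes, since it is built into nucleic acids and traps DNA methyltransferases on DNA. MIR148A and MIR152 are themselves silenced by promoter methylation in several tumour types.

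The 3p guides are shown because the shared seed defines the family and because they differ at so few bases that reads could be assigned to the wrong member. Sequences are from RefSeq (GRCh38.p14), 5′ to 3′, with the seed in capitals, and 5 of the 6 arms matched an entry, all but miR-148a-5p.
hsa-miR-148a-3p: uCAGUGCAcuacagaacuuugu
hsa-miR-148b-3p: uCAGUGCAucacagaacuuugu
hsa-miR-152-3p: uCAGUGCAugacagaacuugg
hsa-miR-148b-5p: aAGUUCUGuuauacacucaggc
hsa-miR-152-5p: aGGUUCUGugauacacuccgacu
Counted from 1 at the 5′ end, miR-148b-3p differs from miR-148a-3p by C9U and U10C, 2 of 22 bases. miR-152-3p differs from miR-148a-3p by C9U, U10G and U20G, 3 of the 21 bases that both have. Among the 2367 miRNAs of the table with a RefSeq sequence, these 3 guides were the ones with the seed CAGUGCA. How reads with mismatches were assigned is not given in the sources used here, so a part of each guide's count may belong to another.

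The hairpins are shown with the listed mature arms in capitals, to place the guide in each precursor and the passenger in MIR148B and MIR152. The passenger miR-148a-5p had no matching entry, so it is not marked in MIR148A.
MIR148A: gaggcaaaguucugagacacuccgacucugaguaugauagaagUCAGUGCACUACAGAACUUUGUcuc
MIR148B: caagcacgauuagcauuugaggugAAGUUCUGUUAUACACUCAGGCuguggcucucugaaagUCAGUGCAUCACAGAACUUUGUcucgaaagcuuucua
MIR152: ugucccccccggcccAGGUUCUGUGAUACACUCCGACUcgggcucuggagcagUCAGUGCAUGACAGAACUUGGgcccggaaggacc
MIR148A lies at chr7:25949919-25949986 on the minus strand, in no annotated gene other than its own, and the nearest coding gene starts 202254 bases to its right (NFE2L3, a transcription factor). MIR148B lies at chr12:54337216-54337314 on the plus strand, in an intron of COPZ1, which encodes a subunit of the COPI vesicle coat. MIR152 lies at chr17:48037161-48037247 on the minus strand, in an intron of COPZ2, the paralogue of COPZ1. Host genes are from GENCODE 29 (GRCh38), and COPZ1 and COPZ2 run on the strand of their hairpins.

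The seed matches in the 3 methyltransferase transcripts are shown because the family is known for acting on this enzyme class. The sense strand of 1 GENCODE 29 transcript per gene, the one with the longest coding sequence, was searched for TGCACTG, the complement of bases 2 to 8. Each line gives 30 bases with the match in capitals.
DNMT1 3′ UTR, chr19:10133612-10133641, minus strand: ctggcaccaggaatccccaacaTGCACTGa
DNMT3A coding sequence, chr2:25235716-25235745, minus strand: tgagaaagaggacatcttatggTGCACTGa
DNMT3B coding sequence, chr20:32797219-32797248, plus strand: tgacgatggctatcagtcttacTGCACTGt
DNMT3B coding sequence, chr20:32806289-32806318, plus strand: tggcaaagaagatgttttgtggTGCACTGa
The 3′ UTR of DNMT1 is 127 bases long and held 1 match, while 2.21% of 1042 3′ UTRs of like length (80% to 125% of it) held one. The coding sequence of DNMT3B held 2 matches and that of DNMT3A 1, and 20.3% and 21.7% of coding sequences of like length held at least 1. No match was found in the coding sequence of DNMT1 or in the 3′ UTRs of DNMT3A and DNMT3B, of which 35.7%, 41.9% and 13.0% of like regions held one. A match describes the letters of these transcripts, and no messenger RNA was measured here.

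Library totals ran from 3291500 to 10644739 counts in resistant libraries and from 5660055 to 12563945 counts in sensitive libraries. Resistant replicate 3 stood apart, with Pearson's r of 0.851 and 0.861 against the other 2 resistant libraries (log2 CPM, counts per 1000000 library counts, 768 miRNAs), while these had 0.994 with each other and sensitive libraries had 0.972 to 0.991. miR-92a-3p took 58.6% of its counts, against 17.5% to 20.2% in the other resistant libraries and 10.5% to 14.3% in sensitive libraries, and 7 miRNA entries that look like pieces of tRNA, rRNA or snRNA took 4.96%, against 1.01% to 1.04% and 1.08% to 1.69%. Most of that 4.96% came from 2 of the 7 entries, miR-1260a and miR-1260b (72968 and 77296 counts). Among the others, miR-1246 had 9644 counts and 3788 CPM in this library, within its sensitive range of 921 to 5599 CPM, and miR-7975 had 0 counts. The log2 deviation of resistant replicate 3 from the other resistant libraries went with the GC content of the mature sequence (Spearman's rho 0.711 across 677 miRNAs of the same libraries). GC content also went with the log2 fold change, resistant over sensitive (rho 0.565 with all libraries and 0.330 without resistant replicate 3). The median GC content of tested miRNAs was 47.8%. It was 40.9% for miR-148a-3p and both arms of miR-148b, 47.6% for miR-152-3p and 47.8% for miR-152-5p. The part of these features in the family's values was not tested directly, and the arms' fold changes, shares of the 3p counts and arm ratios are given with and without this library. All 6 blood-cell miRNAs used to check the label were found in every library, with 2.55% to 5.01% of counts in resistant and 1.66% to 1.90% in sensitive libraries. The highest share, in resistant replicate 3, was mostly miR-486-5p (161152 of 3291500 counts). With all libraries, miR-486-5p had a positive log2 fold change among them (2.34, edgeR adjusted p = 0.130), the other 5 had -1.52 to -0.41, and none of the 6 passed. Its levels were 13140, 9582 and 63305 CPM in resistant replicates 1 to 3, against 6215, 6077 and 4744 CPM in sensitive replicates 1 to 3. Without resistant replicate 3, where 28.1% of 822 miRNAs passed, miR-486-5p was 2.07-fold higher in resistant cells (edgeR adjusted p = 0.00218). In that fit miR-223-3p was 1.99-fold lower (edgeR adjusted p = 0.00733), and the others did not pass. The 5 markers of other tissues together had at most 0.00886% in resistant and 0.0106% in sensitive libraries, with miR-124-3p, a neuronal miRNA, at 0 counts in 4 of the 6 libraries.

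With all 6 libraries, 0 of the 6 arms passed the test, where 4.17% of all 768 tested miRNAs did (edgeR quasi-likelihood test, Benjamini-Hochberg adjusted p under 0.05). 1 arm, miR-148a-5p, had an unadjusted p under 0.05, as 205 of the 768 had. Both arms of miR-148a had about doubled levels in resistant replicates 1 and 2, while the arms of miR-148b and miR-152 lay near or below their levels in sensitive cells. DESeq2 called 1 arm (19.9% of its 750 miRNAs with an adjusted p), limma-voom 0 (5.21%) and limma-voom with library quality weights 3 (42.1%). Without resistant replicate 3, both arms of miR-148a rose and 0 arms fell, where 28.1% of 822 miRNAs passed, 13.7% higher and 14.4% lower in resistant cells. The family's median log2 fold change, resistant over sensitive, was -0.33 with all libraries and 0.06 without that library, beside medians of -0.11 and 0.04 over all tested. With a correction for GC content, which needs a mature sequence, 0 of 5 arms passed with all libraries (10.9% of 677 miRNAs did) and 1, miR-148a-3p, without that library (26.7% of 729).

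miR-148a-3p, the most abundant guide of the family, had 26179, 25876 and 5705 CPM (scaled by trimmed mean of M values, TMM, factors) in resistant replicates 1 to 3, against 11814, 15306 and 13190 CPM in sensitive replicates 1 to 3. Both of the first resistant libraries lay above every sensitive library, and resistant replicate 3 lay below every sensitive library. The means were 19253 ± 11734 CPM in resistant and 13437 ± 1759 CPM in sensitive cells (SD, n = 3 each). The log2 fold change was 0.52 (SE 0.58, 95% interval -0.83 to 1.87, edgeR adjusted p = 0.592). Without resistant replicate 3 it was 2.01-fold higher in resistant cells (log2 fold change 1.01, SE 0.17, 95% interval 0.63 to 1.38, edgeR adjusted p = 0.00134). As a share of library counts it made up 3.10%, 3.22% and 0.441% in resistant libraries (exact 95% intervals 3.08% to 3.11%, 3.21% to 3.23% and 0.434% to 0.448%), against 1.13%, 1.47% and 1.26% in sensitive libraries (1.12% to 1.14%, 1.46% to 1.48% and 1.25% to 1.27%). These intervals, and all floors below, cover counting error only. By counts it ranked 6, 7 and 22 among all miRNAs in resistant libraries, and 13, 11 and 13 in sensitive libraries. In a bulk library, more cells that make a miRNA and more of it per cell cannot be told apart.

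miR-148a-5p, the passenger of the same hairpin, had 316, 278 and 152 CPM in resistant libraries, against 141, 114 and 108 CPM in sensitive libraries. It was the family's only arm whose groups did not overlap, with the third resistant library just above the highest sensitive one, and 41.8% of all tested miRNAs had groups that did not overlap. With shares of library totals the groups did overlap, at 0.0373%, 0.0346% and 0.0118% in resistant libraries against 0.0135%, 0.0110% and 0.0103% in sensitive libraries. The means were 249 ± 85.4 CPM in resistant and 121 ± 17.5 CPM in sensitive cells, a 2.05-fold difference (SD, n = 3 each). The log2 fold change of 1.04 did not pass (SE 0.42, 95% interval 0.07 to 2.0, edgeR adjusted p = 0.166). DESeq2 called it higher with all libraries (log2 fold change 1.13, adjusted p = 0.0225). Without resistant replicate 3 it rose 2.54-fold (1.34 on the log2 scale with an SE of 0.22, edgeR adjusted p = 0.00102).

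**Figure D1:**
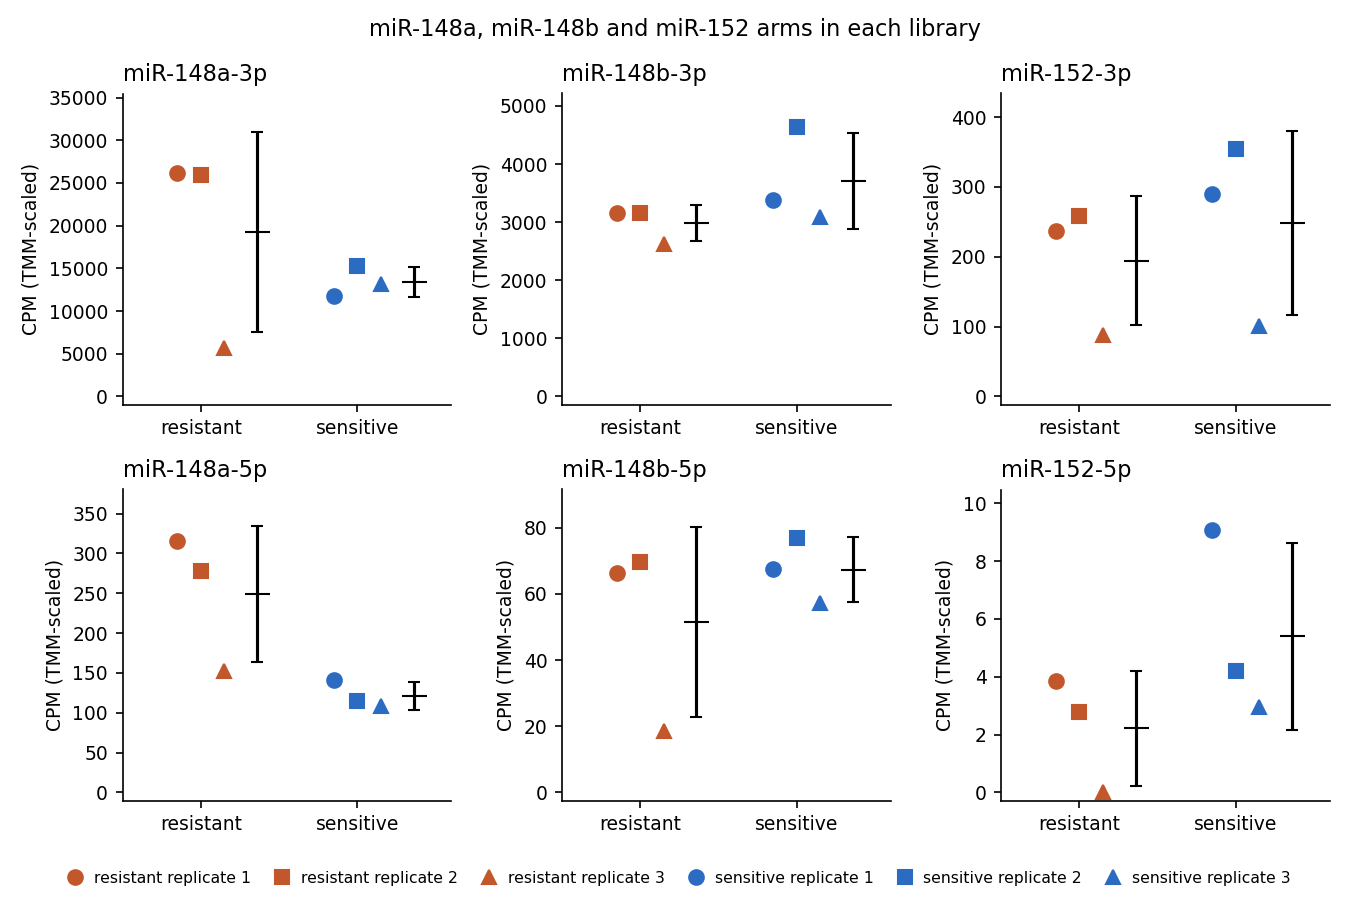
CPM (TMM-scaled, linear axes) of the 6 arms in each library, resistant left and sensitive right, with 1 point per library and the mean and SD of 3 libraries as a black bar. Both miR-148a arms are high in resistant replicates 1 and 2 (26179 and 25876 CPM for the 3p arm), and resistant replicate 3 (orange triangle) is the lowest resistant library in every panel.

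miR-148b-3p, the guide made from the COPZ1 intron, had 3164, 3157 and 2631 CPM in resistant libraries, against 3379, 4640 and 3084 CPM in sensitive libraries. The groups overlapped, and resistant replicates 1 and 2 lay between the sensitive libraries. Its log2 fold change was -0.31 (SE 0.36, 95% interval -1.15 to 0.52, edgeR adjusted p = 0.602), and -0.17 without resistant replicate 3 (95% interval -0.63 to 0.29, edgeR adjusted p = 0.596). That last interval leaves out a doubling like that of miR-148a-3p in the same 5 libraries, but a smaller change in either direction is not shown to be absent. The sign was not stable, since a correction for GC content gave 0.45 with all libraries (edgeR adjusted p = 0.438). miR-148b-5p, its passenger, had 66.3, 69.7 and 18.5 CPM in resistant libraries, against 67.6, 76.9 and 57.4 CPM in sensitive libraries. Only resistant replicate 3 lay outside the range of the sensitive libraries, and its 18.5 CPM rest on 47 counts (log2 fold change -0.38, 95% interval -1.62 to 0.86, edgeR adjusted p = 0.659). Without that library the log2 fold change was 0.07 (95% interval -0.45 to 0.59, edgeR adjusted p = 0.880).

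miR-152-3p, the guide made from the COPZ2 intron, had 237, 258 and 88.4 CPM in resistant libraries, against 290, 354 and 101 CPM in sensitive libraries. Replicate 3 was the low library in both groups, and the groups overlapped. Its log2 fold change was -0.35 (SE 0.60, 95% interval -1.74 to 1.04, edgeR adjusted p = 0.707), and 0.05 without resistant replicate 3 (95% interval -0.80 to 0.90, edgeR adjusted p = 0.945). miR-152-5p, the rarest arm, had 38, 37 and 0 counts in resistant libraries, against 109, 41 and 16 counts in sensitive libraries. In CPM this was 3.87, 2.79 and 0 in resistant libraries, where a count of 0 allows up to 1.18 CPM in replicate 3, against 9.07, 4.19 and 2.96 in sensitive libraries. Its log2 fold change of -1.15 did not pass (SE 0.85, 95% interval -3.12 to 0.81, edgeR adjusted p = 0.401). Leaving out resistant replicate 3 gave -0.70 (SE 0.45, 95% interval -1.67 to 0.27, edgeR adjusted p = 0.276).

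**Figure D2:**
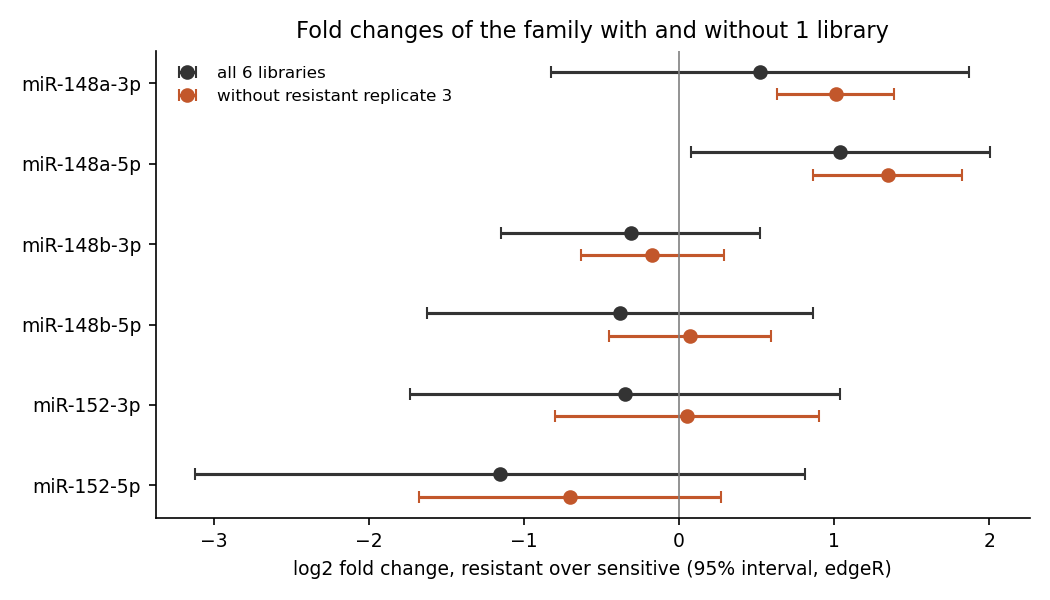
Log2 fold change, resistant over sensitive, of each arm with its 95% interval (edgeR), from all 6 libraries (dark, upper of each pair) and without resistant replicate 3 (orange, lower). Without that library both miR-148a arms have intervals above 0 (1.01 and 1.34), while the intervals of the other 4 arms include 0.

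In both forms the guides kept the order miR-148a-3p, miR-148b-3p, miR-152-3p in each of the 6 libraries. miR-152-3p and miR-148a-5p were neighbours in level, with 195 ± 92.5 and 249 ± 85.4 CPM in resistant cells and 248 ± 131 and 121 ± 17.5 CPM in sensitive cells (SD, n = 3). Library by library, miR-152-3p lay below miR-148a-5p in each resistant library and in sensitive replicate 3, and above it in sensitive replicates 1 and 2. The difference between these arms was not tested. Adapter ligation differs between miRNAs, so levels of different arms compare less surely than 1 arm across libraries. Within a library, shares of the summed 3p counts need no scaling between libraries. miR-148a-3p held 88.5%, 88.3% and 67.7% of the family's 3p counts in resistant libraries, against 76.3%, 75.4% and 80.5% in sensitive libraries. It thus held the largest shares in resistant replicates 1 and 2 and the smallest in resistant replicate 3. The mean difference was 4.11 percentage points (81.5 ± 12% in resistant, 77.4 ± 2.75% in sensitive, SD, n = 3 each; two-sided exact permutation p = 0.6, where 3 against 3 libraries cannot give less than 0.1). Without resistant replicate 3 it was 11.0 points (exact permutation p = 0.2, the smallest that 2 against 3 allows), without resistant replicate 1 it was 0.615 points and without resistant replicate 2 it was 0.694 points.

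miR-148b-3p held 10.7%, 10.8% and 31.2% of the family's 3p counts in resistant libraries, against 21.8%, 22.9% and 18.8% in sensitive libraries. Its share was lowest in resistant replicates 1 and 2, whose CPM of this guide lay within the sensitive range, and highest in resistant replicate 3 (difference -3.60 points, exact permutation p = 0.8; -10.4 points without that library). miR-152-3p held 0.803%, 0.881% and 1.05% in resistant libraries, against 1.87%, 1.74% and 0.617% in sensitive libraries, and the groups overlapped (difference -0.50 points, exact permutation p = 0.4; -0.57 points without resistant replicate 3). As a whole the family made up 3.54%, 3.69% and 0.665% of all counts in resistant libraries, against 1.501%, 1.97% and 1.58% in sensitive libraries. These shares are of totals of which miR-92a-3p took 58.6% in resistant replicate 3. Scaled with TMM factors, the family had 29966, 29641 and 8595 CPM in resistant libraries, against 15701, 20496 and 16543 CPM in sensitive libraries.

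**Figure D3:**
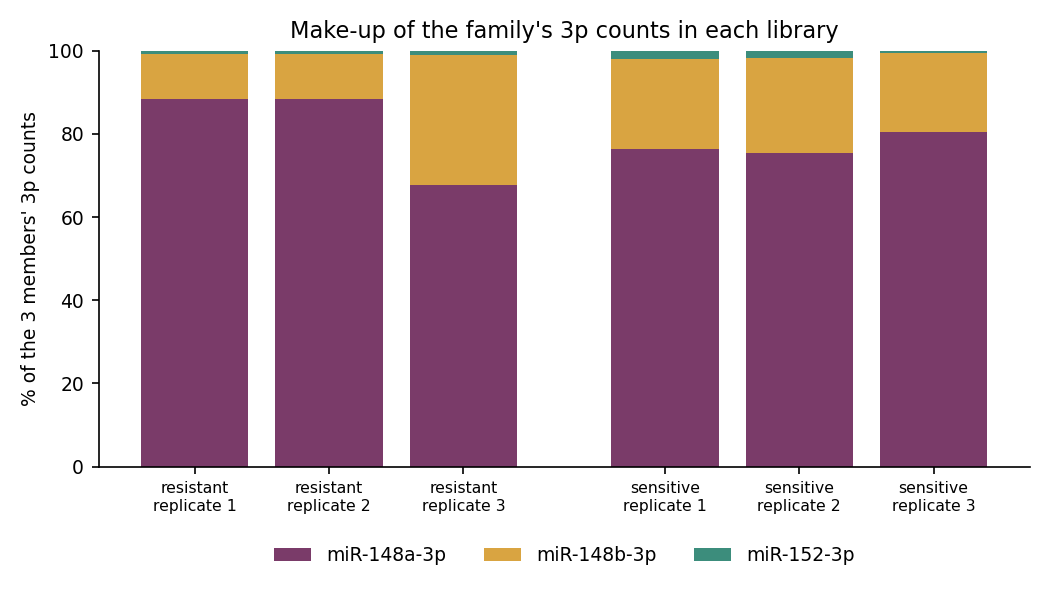
Share of the summed 3p counts of the 3 hairpins held by each guide, in percent, 1 stacked bar per library, resistant left and sensitive right. miR-148a-3p takes 88.5% and 88.3% in resistant replicates 1 and 2, 67.7% in resistant replicate 3 and 75.4% to 80.5% in sensitive libraries.

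Both arms of a hairpin are cut from the same precursor, so their ratio does not depend on library scaling or on how much precursor is made. miR-148a had 82.9, 93.1 and 37.4 3p counts per 5p count in resistant libraries, against 83.8, 134 and 122 in sensitive libraries. Resistant replicates 1 and 2 lay within or just under the sensitive range, so the guide and the passenger were high together there, and replicate 3 lay below it. On the log2 scale (0.5 added to each count) the difference was -0.75 (6.05 ± 0.72 in resistant, 6.79 ± 0.36 in sensitive, SD, n = 3 each; exact permutation p = 0.2), and -0.34 without resistant replicate 3. miR-148b had 47.7, 45.3 and 143 3p counts per 5p count in resistant libraries, against 50.0, 60.3 and 53.8 in sensitive libraries. Its log2 difference was 0.30 (exact permutation p = 1) and turned to -0.23 without resistant replicate 3. For miR-152 the log2 ratio was 5.92, 6.51 and 8.82 in resistant libraries, against 4.99, 6.38 and 5.05 in sensitive libraries, and the highest value rests on the 0 counts of the 5p arm (difference 1.61, exact permutation p = 0.2; 0.74 without resistant replicate 3). Over the 205 hairpin names with both arms tested, the median difference was -0.16, with quartiles at -0.73 and 0.53. The median without resistant replicate 3 was -0.08, with quartiles at -0.48 and 0.29.

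**Figure D4:**
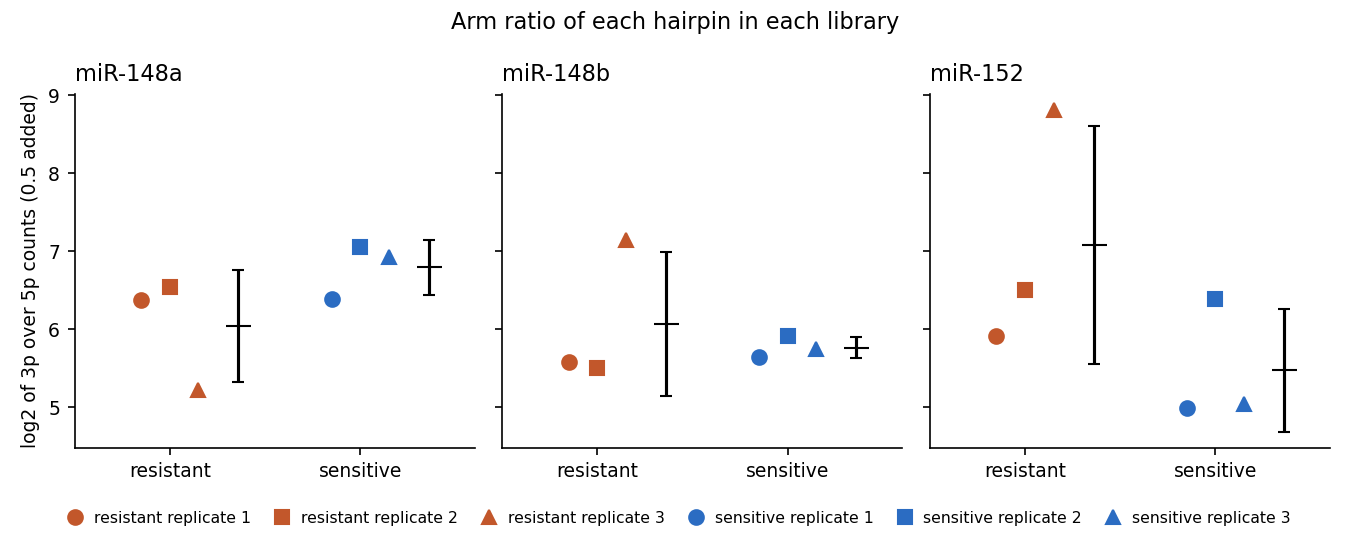
Log2 ratio of 3p to 5p counts (0.5 added to each) for the 3 hairpins in each library, resistant left and sensitive right, with the mean and SD of 3 libraries as a black bar. Resistant replicate 3 (orange triangle) is the lowest of all for miR-148a (5.22) and the highest of all for miR-148b (7.14) and miR-152 (8.82).

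Other miRNAs reported to act on methyltransferase transcripts in human cells were read from the same fit. Of 9 listed, all 9 were tested and 0 passed with all libraries, where 4.17% of all tested did (4 had an unadjusted p under 0.05). DESeq2 called 1 (19.9% of all), limma-voom 0 (5.21%) and limma-voom with quality weights 5 (42.1%), and the edgeR median log2 fold change of the list was -0.43. The most abundant was miR-126-3p, known from endothelium and blood stem cells and as a repressor of DNMT1, with 21683, 25164 and 9052 CPM in resistant libraries against 47258, 47720 and 33797 CPM in sensitive libraries. The groups did not overlap, as was so for 41.8% of all tested miRNAs, and the log2 fold change of -1.20 did not pass (SE 0.48, edgeR adjusted p = 0.166). Without resistant replicate 3, 3 fell and 1 rose, where 14.4% of all tested fell and 13.7% rose, and these 4 are named after their values were seen. miR-29a-3p, which targets DNMT3A and DNMT3B, fell 1.99-fold (edgeR adjusted p = 0.00728), miR-126-3p fell 1.76-fold (edgeR adjusted p = 0.00883) and miR-377-3p, from the imprinted cluster on chromosome 14, fell 2.37-fold (edgeR adjusted p = 0.00291). miR-143-3p, which targets DNMT3A, rose 6.72-fold (edgeR adjusted p = 9.62e-05). The other 5 listed did not pass in these libraries, and the median of the 9 was 0.09.

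A second group of guides shares the letters AGUGCA with the family's seed, shifted by 1 base, as in hsa-miR-130b-3p: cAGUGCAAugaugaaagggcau, where bases 2 to 8 are again in capitals. Its target match, TTGCACT, overlaps TGCACTG by 6 letters where a T precedes it. The bases before the 4 methyltransferase matches are A, G, C and G, so none of those sites is also a match for this second group. Of its 5 listed guides 4 were tested, miR-130a-3p having at most 10 counts in any library. With all libraries 0 passed, where 4.17% of all tested did, and 0 had an unadjusted p under 0.05, where 205 of the 768 had one. DESeq2 called 0 (19.9% of all), limma-voom 0 (5.21%) and limma-voom with quality weights 1 (42.1%), and the median log2 fold change was -0.25. Without resistant replicate 3, 0 passed, where 28.1% of all tested did (list median 0.04). With 4 guides tested, these counts cannot tell the list from all miRNAs. miR-130b-3p, the most abundant, had 552, 626 and 497 CPM in resistant libraries against 683, 630 and 549 CPM in sensitive libraries. These groups overlapped (log2 fold change -0.15, 95% interval -0.96 to 0.65, edgeR adjusted p = 0.782), and its sign turned under library totals (0.03). Leaving out resistant replicate 3 gave -0.021 (95% interval -0.47 to 0.43, edgeR adjusted p = 0.958).

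The 3 hairpins lie in the neighbourhood of HOX gene clusters, HOXA on chromosome 7, HOXC on chromosome 12 and HOXB on chromosome 17. RefSeq lists 14 other miRNA hairpins within 2 Mb of them, and 8 of their mature products were tested, of which 1 passed with all libraries (4.17% of all tested did), miR-196a-5p (higher, edgeR adjusted p = 0.0154, made at both the HOXB and the HOXC cluster). In the 5 libraries other than resistant replicate 3, 5 of the 8 rose and 0 fell, where 13.7% of all tested rose and 14.4% fell. Apart from miR-615-3p, those that rose were miR-196 products (miR-196a-5p, miR-196a-3p, miR-196a-1-3p and miR-196b-5p). The hairpin MIR196A2 gives both miR-196a-5p and miR-196a-3p, and MIR196A1 gives both miR-196a-5p and miR-196a-1-3p. The rise of miR-196a-5p is thus not separate from that of the other miR-196a products, while miR-196b-5p comes from another hairpin, MIR196B. miR-196a-1-3p had 46 counts over all libraries. Around MIR148A, whose arms rose in those 5 libraries, the single tested neighbour was miR-196b-5p at a distance of 1219494 bases. It rose too (log2 fold change 1.53, edgeR adjusted p = 0.00669), but with all libraries it had 1.20 and did not pass (edgeR adjusted p = 0.205). Around MIR148B, whose arms were not called, 3 of 4 tested neighbours rose, among them miR-615-3p at 303171 bases (1.07, edgeR adjusted p = 0.0363). Around MIR152, 2 of 4 rose, miR-196a-5p and miR-196a-1-3p, while miR-10a-5p at 542591 bases had 0.32 (edgeR adjusted p = 0.236).

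The tested miRNAs whose log2 CPM ran most like each arm over the 6 libraries are given as a description. The points share libraries and depth, and resistant replicate 3 weighs on all of them. For miR-148a-3p they were miR-653-5p, miR-454-5p and miR-301a-5p (Pearson's r 0.992, 0.988 and 0.968). For miR-148a-5p they were miR-202-5p, miR-96-3p and miR-196a-3p (0.973, 0.964 and 0.955), and for miR-148b-3p they were miR-5690, miR-219b-3p and miR-671-5p (0.986, 0.945 and 0.923). For miR-148b-5p they were miR-106a-5p, miR-4517 and miR-3613-5p (each 0.998), for miR-152-3p miR-1-3p, miR-34c-5p and miR-548ad-5p (0.994, 0.981 and 0.975), and for miR-152-5p miR-147b-5p, miR-769-5p and miR-1304-3p (0.997, 0.990 and 0.990). No arm of the family was among the 3 most alike to another arm. Between the family's own arms, r ran from -0.31 (miR-148a-5p with miR-148b-3p) to 0.967 (miR-148b-5p with miR-152-5p), and it was 0.630 between the 2 arms of miR-148a.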

How the data were processed

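TriPure extraction, DNase treatment, a NEBNext small RNA kit and a NovaSeq instrument are named in the labels' protocols. The authors deposited read counts per mature miRNA, one column to a library, as whole numbers without normalization. The submitters' processing notes name GRCh38, and the aligner, counter, miRBase release and filters were not given in these sources. The counts carry no molecular identifiers.

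Counts were filtered with filterByExpr (minimum count 10, minimum total 15), scaled with TMM factors and tested with edgeR 4.0.16 in R 4.3.3 (quasi-likelihood F test, resistant over sensitive, no covariates, Benjamini-Hochberg over all tested miRNAs, threshold 0.05). SE is the absolute log2 fold change over the square root of F. Arm ratios and shares were tested by exact permutation over libraries (SciPy 1.17.1). Alternatives used RLE factors, library totals, other filters, DESeq2 1.42.0, limma 3.58.1, a GC correction, a replicate block and leaving out each library. The fits over all miRNAs were tried on simulated counts that held no library standing apart from its group. The fits that leave out a library, the arm ratios and the shares were not tried this way. Replicates within a group differed by more than sampling noise (chi-square per degree of freedom 76.7 to 2405), so each was counted.

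The members, lists and rules were chosen with earlier results of these data known. All 6 arms were described, with every listed miRNA that passed or else the most abundant of its list, the 3 miRNAs most alike to each arm, and neighbours within 2 Mb.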

Additional observations from a re-analysis of the deposited data

How the results depend on the processing

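Over all miRNAs, 32 passed, against 21 with RLE factors, 162 without a filter, 14 with a mean of at least 10 CPM, 149 with DESeq2, 323 with quality weights, 74 with a GC correction and 195 with that correction without resistant replicate 3 (an alternative chosen after seeing the data). Leaving out 1 library at a time gave 4 to 231 calls, 231 without resistant replicate 3, 7 without resistant replicate 1, 5 without sensitive replicate 1, 4 without sensitive replicate 2 and 5 without sensitive replicate 3. With library totals 27 were higher and 16 lower, against 16 and 16 with TMM factors, and the median log2 fold change of all miRNAs moved by 0.20 (by 0.10 with RLE factors).

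Of the family, 0 arms passed under 13 of 17 alternatives. DESeq2 called 1 (higher, 19.9% of all) and quality weights 3 (2 higher and 1 lower, 42.1%). The GC correction without resistant replicate 3, which had no sequence for miR-148a-5p, called 1 (higher, 26.7%). Leaving out 1 library gave 0 to 2. Of the methyltransferase-linked list, 2 passed without a filter, 1 with DESeq2, 5 with quality weights and 4 with the GC correction without resistant replicate 3, and leaving out 1 library gave 0 to 4. Of the guides with the shifted seed, 1 passed with quality weights (lower in resistant cells, where 42.1% of all passed in either direction). The GC correction without resistant replicate 3 called 1 in the opposite direction (higher, where 26.7% of all passed).

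miR-148a-3p had a positive log2 fold change under all 17 alternatives (0.24 to 1.16, edgeR, limma or DESeq2 adjusted p 0.000109 to 0.801) and passed under 3, and miR-148a-5p under all 14 that could test it (0.93 to 1.34, adjusted p 9.52e-05 to 0.361), also passing under 3. With the GC correction and all libraries miR-148a-3p had 0.94 (edgeR adjusted p = 0.0850). miR-152-5p was negative under all 16 and passed with quality weights (-0.995). Signs turned for miR-148b-3p with the GC correction (0.45), that correction with the replicate block (0.36) and without sensitive replicate 2 (0.020, leaving out 1 library at a time giving -0.36 to 0.020). They turned for miR-148b-5p with the GC correction (0.079), with the block as well (0.062), without resistant replicate 3 (0.069, the leave-one-out range being -0.54 to 0.069) and with the GC correction in those 5 libraries (0.22). They turned for miR-152-3p without resistant replicate 3 (0.05), without sensitive replicate 2 (0.093, in a leave-one-out range of -0.68 to 0.093) and with the GC correction without resistant replicate 3 (0.036). For miR-130b-3p they turned with library totals (0.027), a mean of at least 10 CPM (0.026), the GC correction (0.22), that with the block (0.20), without sensitive replicate 1 (0.059, in a leave-one-out range of -0.17 to 0.059) and with the GC correction without resistant replicate 3 (0.036). None of these values passed, and the cause was not tested. The arm ratio of miR-148b turned to -0.23 without resistant replicate 3, and leaving out 1 library at a time gave -0.23 to 0.59.

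With the replicate number as a block, 23 miRNAs and 0 arms passed, and miR-148a-3p had 0.26. Deviations of same-numbered libraries from their group means had r of -0.05, 0.23 and 0.11, and not every library was most like its own number, so the numbers were not taken to pair libraries. Depth limits miR-152-5p most, with 0 to 109 counts a library.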
